A study of Mus musculus with 20 samples.

Results

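Microglia genes were followed through bulk RNA sequencing of adBNST (the bed nucleus of the stria terminalis, anterodorsal part), a small forebrain region tied to stress and anxiety, in control mice and in mice after chronic variable mild stress. The genes were taken from a list of 37 symbols known as homeostatic, activation or lineage genes of microglia. No measured value entered that rule, but earlier results of these data were known when the list was chosen. Of the 37 symbols, 35 were among the 12988 genes of the count table: 14 of 15 homeostatic genes, 17 of 17 activation genes and 4 of 5 lineage and signalling genes. Susd3, a homeostatic gene, and Spi1, which encodes the lineage factor PU.1, were not analysed here.

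There were 4 groups of 15 mice each: control females, stressed females, control males and stressed males. Mice entered the study between 7 and 9 weeks of age. Stressed mice met 1 or 2 minor stressors a day, in changing order, over 6 weeks, and their tissue was taken 1 hour after the last one, wet bedding. All mice, controls included, were anesthetized with ketamine before the region was microdissected from brain slices. Tissue of 3 mice was pooled for each library, which gave 5 libraries per group, so that the spread between libraries averages over mice and no single mouse was measured.

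Microglia are the resident macrophages of the brain. They depend on the growth factor receptor encoded by Csf1r and on TGF-beta signals, sense nucleotides released by neurons and glia through P2Y receptors, and read the neuronal chemokine fractalkine through the receptor encoded by Cx3cr1. The same cells make complement C1q, which can mark synapses for removal, and engulf debris through Trem2 and its adaptor Tyrobp, Fc receptors and lysosomal proteases; in injury and disease the homeostatic genes commonly fall while engulfment genes rise.

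Promoter sequence gives one feature that the choice of genes did not use. PU.1 binds an 8-base core, GAGGAAGT, read as ACTTCCTC on the other strand. Windows of 250 bases before and 50 bases after the start of each gene (RefSeq, GRCm38.p6) were matched for 27 of the 35 genes, and were lacking for Tmem119, Csf1r, Gpr34, Selplg, C1qa, Tyrobp, Itgb2 and Unc93b1. The core was found on either strand in 5 of the 27 genes (18.5%) and in 332 of 10338 genes of the count table with a window (3.21%). No other motif was searched. The stretches around the core are shown for the 4 of these 5 genes whose levels followed the other microglia genes most closely across libraries, 5′ to 3′ on the gene's own strand and with the core in capitals. That of C1qc lies at chr4:136893032-136893164 on the minus strand and has the core beginning 195 bases before the start. That of Ctss lies at chr3:95526714-95526810 on the plus strand, with the core beginning 2 bases before the start. That of Cd53 lies at chr3:106790125-106790213 on the minus strand, and its core begins at base 7 of the transcript. That of Inpp5d lies at chr1:87620222-87620336 on the plus strand, with the core beginning 20 bases before the start. The fifth gene with the core was Hpgds. For C1qc the distance is from the RefSeq start. The gene as annotated in GENCODE M21 reaches to 136893065, within the printed stretch, so part of that stretch lies inside it. From that end the core would lie nearer the start. A match of letters is a description and not a measured binding site.
C1qc: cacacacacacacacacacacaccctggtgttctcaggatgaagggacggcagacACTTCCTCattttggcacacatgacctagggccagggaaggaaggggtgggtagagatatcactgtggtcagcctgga
Ctss: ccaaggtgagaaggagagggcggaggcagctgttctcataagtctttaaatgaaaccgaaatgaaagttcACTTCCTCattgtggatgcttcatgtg
Cd53: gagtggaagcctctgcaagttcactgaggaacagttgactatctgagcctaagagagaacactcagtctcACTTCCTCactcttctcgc
Inpp5d: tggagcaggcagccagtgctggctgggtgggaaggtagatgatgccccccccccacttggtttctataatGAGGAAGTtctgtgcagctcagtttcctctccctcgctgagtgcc

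Libraries held 2.71 to 33.6 M (mega) counts (median 15.6 M), and the 35 genes together received 2722 counts in the shallowest library, female control 4, and up to 31585 in another. The lowest single count of a microglia gene was 8, for Ptprc, so every one of them was counted in every library. Levels are given in CPM, a gene's counts over its library's total in mega counts, scaled with TMM factors. Together the 35 genes took between 0.0813% and 0.101% of a library's counts. Markers of neighbouring cells were also looked up. Of 10 genes of border macrophages only Mrc1, Cd163 and Stab1 were in the table, with a summed level of 21.9 to 34.6 CPM. Of 12 genes of blood leukocytes none was in the table. The table lacks less abundant genes, so a missing marker cannot show that its cells were absent. The cell type behind the list was therefore not tested by these markers. Of the 35 genes, 8 are also made by other brain cells (Itgb5, Tgfbr1, Lgmn, Unc93b1, Selplg, Inpp5d, Olfml3 and Hpgds). In bulk tissue, fewer microglia and less RNA per microglial cell cannot be told apart.

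Levels were compared between genes only after division by exon length (GENCODE M21), as CPM per kilobase averaged over 20 libraries. Exon length counts each base in any annotated exon of the gene, and can exceed the length of any single transcript. Lysosomal proteases and C1q led the order. Lgmn, the protease legumain, reached 46.8 CPM per kilobase and Ctss, the protease cathepsin S, 42.5. C1qa, with 33.4, and C1qb, with 31.0, came next, and the third C1q chain gene, C1qc, had 16.5. The exon length of C1qc was 1931 bases, against 1040 for C1qa and 1088 for C1qb. The receptor genes Csf1r and P2ry12 followed at 17.6 and 17.1 CPM per kilobase, Tyrobp at 13.1 and Cx3cr1 at 11.98. At the lower end stood Trem2 with 1.38, Ikzf1 with 1.14, Irf8 with 0.647 and Ptprc, the pan-leukocyte phosphatase CD45, with 0.228 CPM per kilobase. The lowest member of the order thus belonged to the genes that microglia share with all white blood cells. Ptprc also had the largest exon length, 18313 bases, and Trem2 had 4946. The order therefore depends on the annotated exons as well as on the level.

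A score was formed as the mean of the 35 centred log2 CPM values, so that 0 is the mean of all libraries. In replicates 1 to 5 the score was 0.0641, 0.0100, 0.0956, 0.135 and 0.148 in control females, and -0.0564, -0.0831, 0.0291, 0.0386 and 0.00852 in stressed females. In control males it was -0.195, -0.103, -0.196, -0.00271 and 0.0887, and in stressed males 0.000399, 0.00993, -0.0603, 0.0301 and 0.0388. Control females thus held the 3 highest scores, while the 3 lowest scores were all in control males, whose replicate 5 stood among the control females. Group means were 0.0907 ± 0.0561 in control females, -0.0127 ± 0.0541 in stressed females, -0.0818 ± 0.124 in control males and 0.00377 ± 0.0390 in stressed males (SD, n = 5). The score was lower by 0.10 with stress in females (a factor of 0.931), higher by 0.09 with stress in males (1.06), lower by 0.17 in control males than in control females (0.887) and higher by 0.02 in stressed males than in stressed females (1.01). These comparisons share groups with each other and are not independent. No test was made on the score, because the genes were chosen with results of these data known.

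**Figure D1:**
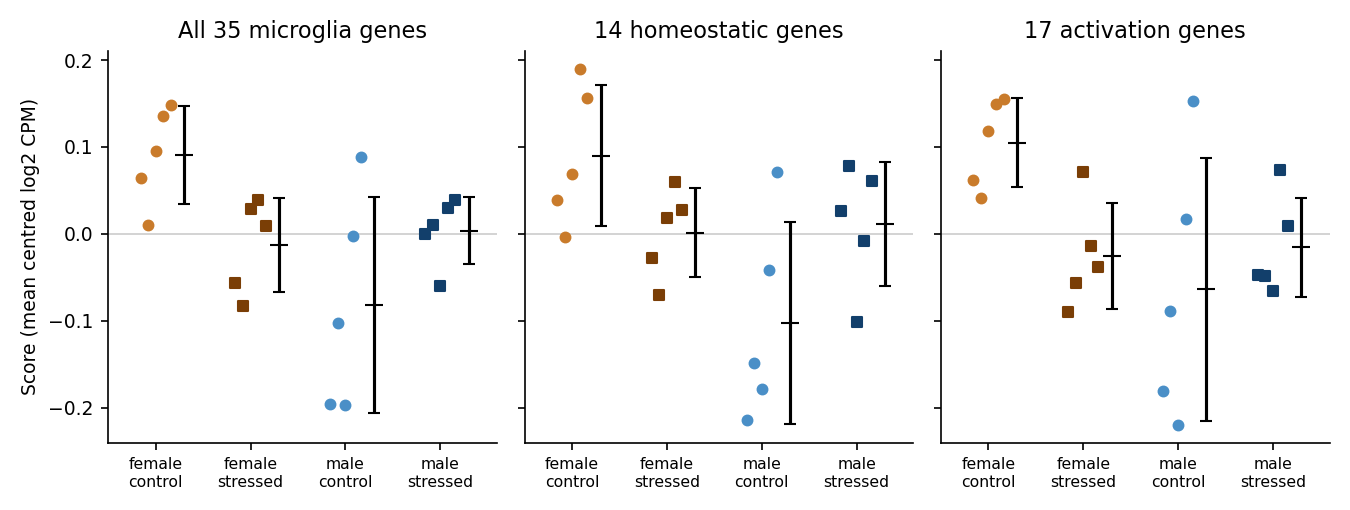
Score of the microglia genes (y axis, mean of centred log2 CPM) in each of 20 libraries by group (x axis), for all 35 genes, the 14 homeostatic genes and the 17 activation genes; points are libraries and black bars the group mean ± SD (n = 5). Control females have the highest mean and control males the lowest, with the widest spread, in each panel.

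Homeostatic and activation genes kept near each other in every group. The homeostatic score was 0.0901 ± 0.0812 in control females, 0.0015 ± 0.0511 in stressed females, -0.103 ± 0.116 in control males and 0.0111 ± 0.0713 in stressed males. The activation score was 0.105 ± 0.0516, -0.0255 ± 0.0609, -0.0640 ± 0.152 and -0.0156 ± 0.0571 in the same order, so both scores ranked the control groups alike. Homeostatic minus activation differed with stress by 0.04 in females and by 0.07 in males, while the SD of this value within groups ran from 0.0371 to 0.0841. Its difference between control males and control females was -0.02 and between stressed males and stressed females -0.00023. Leaving out 1 library at a time moved these 4 values over 0.03 to 0.06 for stress in females, 0.04 to 0.09 for stress in males, -0.04 to -0.0097 for sex in controls and -0.03 to 0.03 for sex in stressed mice, where the sign turned. With all libraries in, none of the 4 comparisons displaced homeostatic minus activation by more than the larger SD of the groups compared. Over 20 libraries, the correlation r with the score of all microglia genes was 0.951 for the homeostatic and 0.942 for the activation score. Both scores share genes with that score, which raises these r. Homeostatic minus activation thus compares lists that mostly moved alike, and cannot show whether the activation state of microglia shifted. Such a shift was not tested.

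Within groups, the genes tended to move together from library to library. After subtraction of each group's mean, the correlation of a gene with the mean of the other microglia genes (Pearson r over 20 libraries, which share depth and dissection) had a median of 0.484 and was above 0 for 33 of 35 genes. It was highest for C1qc at 0.802, Olfml3 at 0.753, C1qa at 0.753, Fcrls at 0.738 and P2ry12 at 0.713. Fcrls encodes an Fc receptor-like protein of microglia and Olfml3 a secreted protein. The exceptions were Ptprc (-0.271) and Aif1 (-0.0018), the gene of the microglial stain IBA1. Of 595 pairs of genes, 456 had an r above 0, with a median of 0.275, so directions counted over the 35 genes are not independent counts. The 5 other genes of the table that followed the score most closely were Zfp934 (r = 0.881), Map6d1 (0.862), Slc48a1 (0.847), Zhx1 (0.828) and Rapgef4 (0.791), and none of them is on a microglia list used here.

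**Figure D2:**
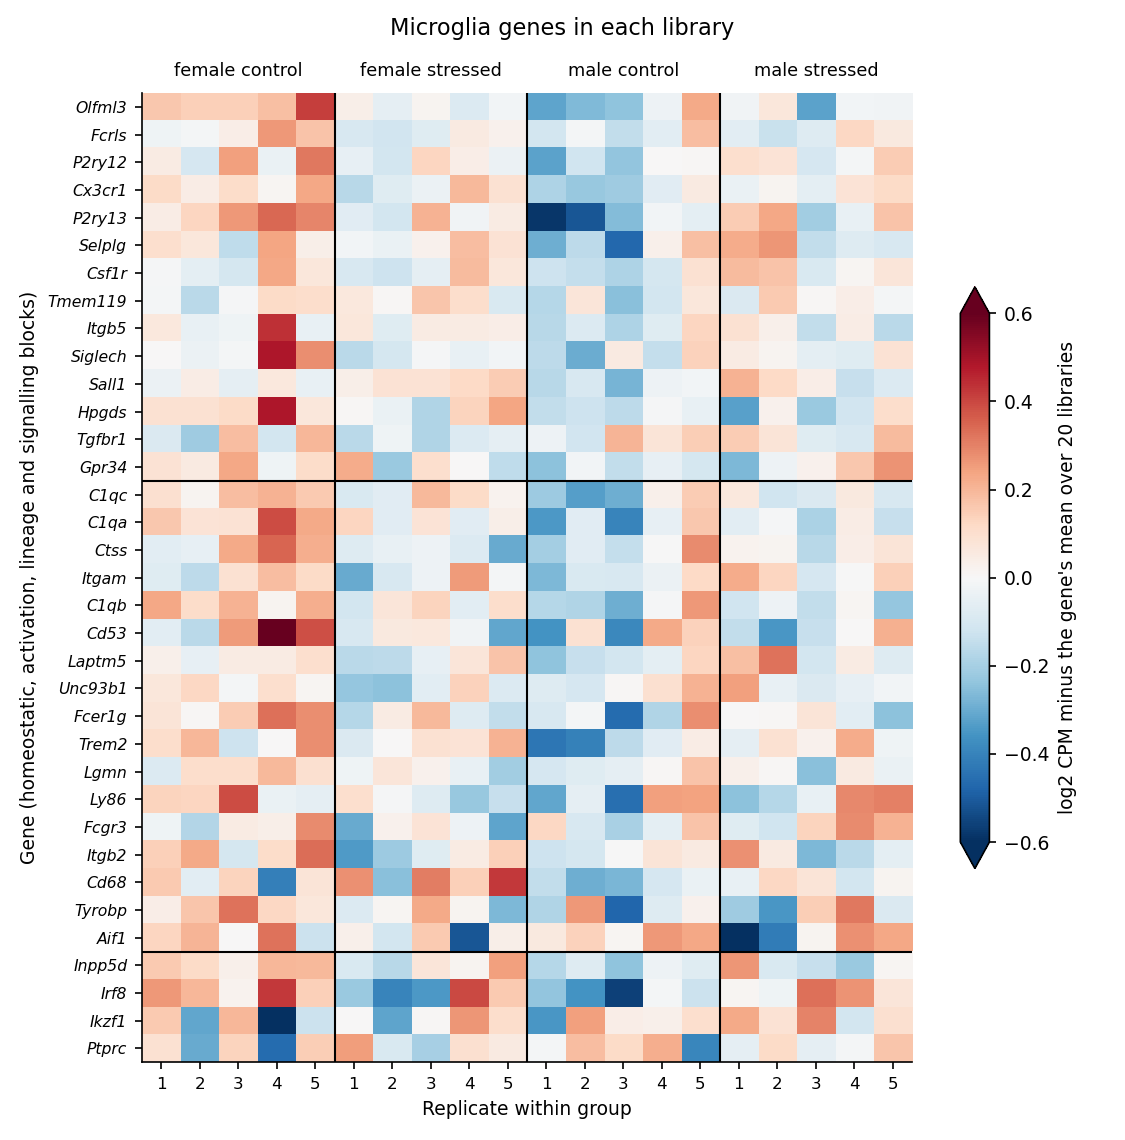
Log2 CPM of each microglia gene (rows, in blocks of homeostatic, activation, and lineage and signalling genes, ordered by r with the other microglia genes) in each library (columns, by group and replicate), minus the gene's mean over 20 libraries; the colour scale ends at 0.6 in either direction. Most rows are high in control females 3 to 5 and low in control males 1 to 3, and Ptprc in the last row does not follow.

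The first comparison asked what stress did to these genes in females. Most of them were a little lower in stressed females: 29 of 35, against 50.5% of all genes, with a median log2 fold change of -0.11 against -0.0011 over all genes. By role, 11 of 14 homeostatic, 16 of 17 activation and 2 of 4 lineage genes were lower. None passed the edgeR test at an adjusted p under 0.05, as was so for 0% of all genes, and DESeq2 and limma-voom called none either. At an unadjusted p under 0.05, 2 genes were lower (3.83% of all genes), Ctss and Olfml3, and none was higher.

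Ctss, which degrades antigens and matrix in the lysosome, had 55.02, 55.4, 67.2, 73.04 and 66.7 CPM in control females and 54.4, 55.7, 56.2, 54.3 and 46.6 CPM in stressed females. The groups overlap, since the first 2 control libraries lie among the stressed ones, and the log2 fold change was -0.23 (SE 0.09, adjusted p = 0.609). Olfml3 had 20.1, 19.8, 19.8, 20.3 and 23.9 CPM in control females and 18.4, 17.3, 18.2, 16.9 and 17.8 CPM in stressed females. Every stressed library was below every control library, with a log2 fold change of -0.23 (SE 0.10, adjusted p = 0.617). Olfml3 was the single microglia gene whose female groups did not overlap in this direction, which held for 0.562% of all genes. The next smallest p belonged to Itgb2, the beta chain of the complement receptor CR3, at -0.21 (SE 0.12, adjusted p = 0.709) and 6.58 ± 0.732 against 5.63 ± 0.757 CPM. The count of genes at an unadjusted p under 0.05 ran from 1 to 4 when a library of either female group was left out (1 without female control 5, 4 without female stressed 4).

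The same comparison in males leaned the other way. In stressed males 26 of 35 genes were higher, against 47.6% of all genes, and the median log2 fold change was 0.06 against -0.0067. By role these were 12 of 14 homeostatic, 10 of 17 activation and 4 of 4 lineage genes. None passed the edgeR test, against 0.0077% of all genes, and DESeq2 and limma-voom called none. At an unadjusted p under 0.05, 5 genes were higher (8.71% of all genes), P2ry13, Irf8, Csf1r, Trem2 and Cx3cr1, and none was lower; DESeq2 gave 3 such genes and limma-voom 4. No gene had all stressed males above all control males, as 3.13% of all genes did.

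P2ry13, an ADP receptor, had 9.48, 9.96, 11.9, 14.1 and 13.7 CPM in control males and 15.8, 16.7, 12.3, 13.8 and 16.04 CPM in stressed males. Control males 1 and 2 were the lowest of the 20 libraries, and the log2 fold change was 0.29 (SE 0.11, adjusted p = 0.196). Irf8, a transcription factor of the myeloid lineage, had 3.81, 3.5, 3.04, 4.44 and 4.1 CPM in control males and 4.52, 4.4, 5.64, 5.4 and 4.72 CPM in stressed males, where the groups overlapped by 1 library on either side. Its log2 fold change was 0.36 (SE 0.14, adjusted p = 0.215). Csf1r had 92.9, 91.8, 89.1, 93.97 and 108 CPM in control males and 115, 114, 95.03, 102 and 106 CPM in stressed males, and its log2 fold change was 0.16 (SE 0.07, adjusted p = 0.297). Control male 5 lay among the stressed males for Csf1r. The number of genes at an unadjusted p under 0.05 depended on single libraries: it was 1 without male control 1, 2 without male control 2 or 3 or without male stressed 2, and 9 without male control 5.

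**Figure D3:**
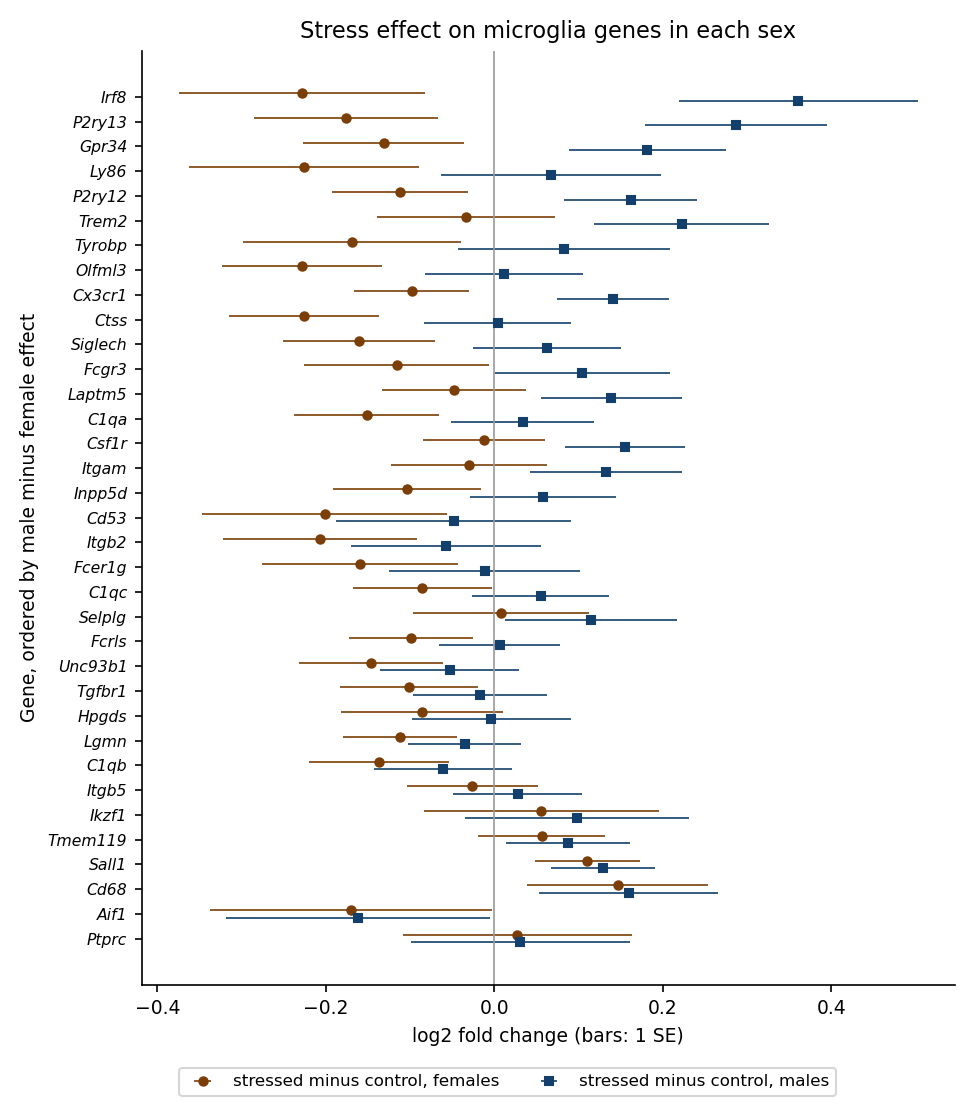
Log2 fold change of each microglia gene between stressed and control libraries (x axis, bars 1 SE from edgeR) in females (circles) and males (squares), ordered by the male minus the female effect (y axis). The male value is right of the female value for all 35 genes, although for the lowest rows, such as Ptprc and Aif1, the bars of both sexes overlap almost wholly.

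Sex in control mice gave the largest median difference of the 4 comparisons between groups. Control males were lower than control females for 31 of 35 genes, against 49.9% of all genes, with a median of -0.14 against 0.00025 over all genes. These were 13 of 14 homeostatic, 16 of 17 activation and 2 of 4 lineage genes. None passed the edgeR test, against 0.747% of all genes, while 12 were lower at an unadjusted p under 0.05 (8.17% of all genes) and none was higher: P2ry13, Cx3cr1, P2ry12, Gpr34, Olfml3, Hpgds, C1qa, C1qb, C1qc, Trem2, Inpp5d and Irf8. DESeq2 called P2ry13, with 10 genes at an unadjusted p under 0.05, and limma-voom called none, with 11. Without male control 5, edgeR called C1qa, C1qb and Olfml3, and with the striatal marker score as a covariate 6 genes were left at an unadjusted p under 0.05. Without male control 1 that count was 8. In this and the other comparisons, the shares of all genes are those of the main fit. Counts under other settings carry no such share, so they cannot be read as particular to microglia genes.

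P2ry13 had 14.7, 15.6, 17.02, 18.1 and 17.4 CPM in control females, all above the 5 control males given above, and its log2 fold change was -0.42 (SE 0.11, adjusted p = 0.074). The gene lies inside Med12l on the opposite strand, at chr3:59207892-59210882 (GRCm38), beside P2ry12. It shares no exon base with Med12l, whose own log2 fold change was 0.03 (SE 0.08, adjusted p = 0.899). Cx3cr1 had 58.3, 55.4, 58.1, 54.2 and 63.1 CPM in control females and 47.3, 45.9, 46.4, 51.2 and 55.7 CPM in control males. Only control male 5 lay within the female range for Cx3cr1, and the log2 fold change was -0.22 (SE 0.07, adjusted p = 0.119). Groups of control mice also did not overlap for Irf8, whose control females had 5.36, 5.15, 4.55, 6.02 and 4.96 CPM, for Hpgds, a prostaglandin D synthase, and for Inpp5d, the phosphatase SHIP1 that damps receptor signalling. For Hpgds the values were 10.3, 10.3, 10.5, 13.6 and 10.2 CPM in control females and 8.73, 8.88, 8.68, 9.64 and 9.38 CPM in control males. For Inpp5d they were 17.5, 17.04, 16.1, 18.1 and 18.01 and 13.96, 14.9, 13.3, 15.4 and 14.9 CPM. These 4 genes compare with 2.02% of all genes whose control groups did not overlap in this direction.

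The 3 C1q chains, which assemble into 1 complex, are encoded side by side on chromosome 4 of GRCm38 (C1qb at 136880129-136886187, C1qc at 136889804-136893065 and C1qa at 136895917-136898803, all on the minus strand). C1qa had 38.6, 36.4, 36.6, 45.2 and 40.3 CPM in control females and 27.1, 32.8, 26.2, 33.2 and 38.5 CPM in control males. It had 37.6, 32.9, 36.4, 32.9 and 35.2 CPM in stressed females and 33.004, 34.2, 30.1, 35.5 and 31.2 CPM in stressed males. Control females were the highest group and control males the most spread. The log2 fold change for sex in controls was -0.27 (SE 0.09, adjusted p = 0.127) for C1qa, -0.21 (SE 0.08, adjusted p = 0.223) for C1qb and -0.21 (SE 0.08, adjusted p = 0.221) for C1qc. C1qb had 39.4, 36.2, 38.7, 33.9 and 39.05 CPM in control females, 29.8, 29.6, 27.3, 33.4 and 40.1 CPM in control males, 31.1, 35.2, 36.8, 32.1 and 36.1 CPM in stressed females and 30.9, 32.8, 30.3, 33.8 and 28.6 CPM in stressed males. C1qc had 33.8, 31.95, 35.96, 36.5 and 35.2 CPM in control females, 27.2, 25.2, 25.8, 32.3 and 35.1 CPM in control males, 29.7, 30.2, 36.2, 34.2 and 32.01 CPM in stressed females and 33.004, 29.05, 29.8, 32.9 and 29.6 CPM in stressed males. For both, the control males again spanned the widest range, from replicates 1 to 3 at the bottom to replicate 5 at the top. Within a library, the ratio of C1qa to C1qc counts lay between 0.961 and 1.30 and that of C1qb to C1qc between 0.928 and 1.18. With stress, C1qa gave -0.15 (SE 0.09, adjusted p = 0.713) in females and 0.03 (SE 0.08, adjusted p = 0.928) in males, C1qb -0.14 (SE 0.08, adjusted p = 0.737) and -0.06 (SE 0.08, adjusted p = 0.806), and C1qc -0.09 (SE 0.08, adjusted p = 0.844) and 0.06 (SE 0.08, adjusted p = 0.833). Between stressed males and stressed females the log2 fold change was -0.09 (SE 0.08, adjusted p = 0.867) for C1qa, -0.14 (SE 0.08, adjusted p = 0.755) for C1qb and -0.07 (SE 0.08, adjusted p = 0.887) for C1qc, and the interaction was 0.18 (SE 0.12, adjusted p = 0.61), 0.08 (SE 0.12, adjusted p = 0.885) and 0.14 (SE 0.12, adjusted p = 0.706). The values of all 3 chains were thus below 0 for males against females in both conditions, nearer 0 in stressed mice, and no difference of these differences passed the test.

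**Figure D4:**
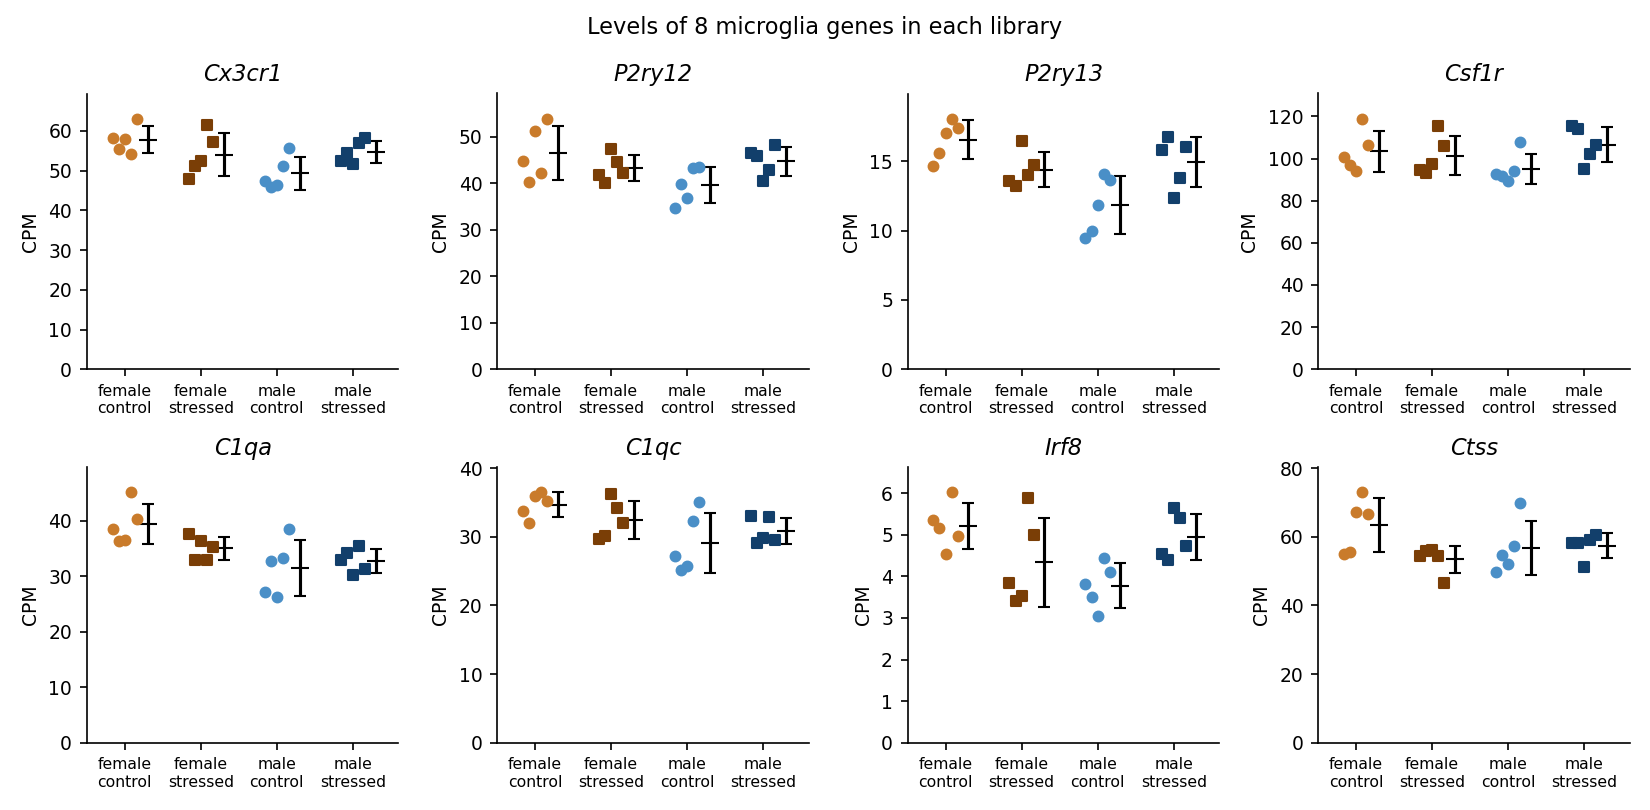
CPM (y axis, from 0) of 8 microglia genes in each library by group (x axis); points are libraries and black bars the group mean ± SD (n = 5). Control males have the lowest mean for the receptor genes Cx3cr1, P2ry12, P2ry13 and Csf1r and for Irf8, and the groups overlap in nearly every panel.

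In stressed mice the sexes lay close together. Males were higher for 21 of 35 genes, against 49.9% of all genes, with a median of 0.02 against -0.00035, split as 8 of 14 homeostatic, 10 of 17 activation and 3 of 4 lineage genes. None passed the edgeR test (0.077% of all genes), DESeq2 and limma-voom called none, and 1 gene was higher at an unadjusted p under 0.05 (3.71% of all genes). This was Fcgr3, an Fc receptor for antibody complexes, with 8.05, 10.1, 10.5, 9.72 and 7.97 CPM in stressed females and 9.45, 9.15, 10.9, 12.1 and 11.5 CPM in stressed males and a log2 fold change of 0.22 (SE 0.10, adjusted p = 0.704). The groups overlap for Fcgr3, and no microglia gene had all stressed males above all stressed females, as 0.77% of all genes did. Leaving out a library of either stressed group left 0 or 1 such gene, with 0 without female stressed 1, female stressed 5 or male stressed 5, and DESeq2 gave 0. The next smallest p belonged to Tgfbr1, the type I receptor for TGF-beta, at 0.14 (SE 0.08, adjusted p = 0.743), and to Cd68, a lysosomal membrane protein, at -0.17 (SE 0.10, adjusted p = 0.755).

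The difference between the sexes in their response to stress was tested as an interaction, in which the female effect is subtracted from the male one. It was above 0 for 35 of 35 genes, against 50.9% of all genes, with a median of 0.15 against 0.0028. None passed the edgeR test, as was so for 0% of all genes, DESeq2 and limma-voom called none, and 5 genes were at an unadjusted p under 0.05 in this direction (5.34% of all genes) and none in the other. These were P2ry13, Irf8, Cx3cr1, P2ry12 and Gpr34, a lysophospholipid receptor, and DESeq2 and limma-voom also gave 5. The interaction was 0.46 (SE 0.15, adjusted p = 0.348) for P2ry13, 0.59 (SE 0.20, adjusted p = 0.348) for Irf8 and 0.24 (SE 0.10, adjusted p = 0.397) for Cx3cr1. With libraries left out in turn the sign stayed positive for 31 to 35 genes. It was positive for 34 genes with DESeq2 and with limma-voom, and for 30 with the striatal marker score as a covariate. The count at an unadjusted p under 0.05 ran from 3 to 13 with libraries left out (3 without male control 1, 13 without male control 5). All 4 groups enter this contrast, so it holds the same libraries as the comparisons above.

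P2ry12, an ADP receptor that guides microglial processes, had 44.7, 40.4, 51.3, 42.2 and 53.9 CPM in control females, 41.8, 40.1, 47.3, 44.5 and 42.3 CPM in stressed females, 34.6, 39.8, 36.7, 43.3 and 43.4 CPM in control males and 46.4, 45.8, 40.4, 42.9 and 48.2 CPM in stressed males. The 3 lowest values were those of control males 1 to 3. Its log2 fold change was -0.11 (SE 0.08, adjusted p = 0.771) with stress in females, 0.16 (SE 0.08, adjusted p = 0.334) with stress in males, -0.23 (SE 0.08, adjusted p = 0.182) for sex in controls, 0.05 (SE 0.08, adjusted p = 0.936) for sex in stressed mice and 0.27 (SE 0.11, adjusted p = 0.416) for the interaction. Cx3cr1 had 47.8, 51.2, 52.4, 61.5 and 57.3 CPM in stressed females and 52.3, 54.3, 51.6, 56.9 and 58.2 CPM in stressed males, and its log2 fold change with stress was -0.10 (SE 0.07, adjusted p = 0.754) in females and 0.14 (SE 0.07, adjusted p = 0.315) in males. Between stressed males and females Cx3cr1 differed by 0.02 (SE 0.07, adjusted p = 0.992). Gpr34 had 13.5 ± 0.898 CPM in control females, 12.7 ± 1.59 in stressed females, 11.7 ± 0.717 in control males and 13.05 ± 1.8 in stressed males. Gpr34 lies inside Cask on the opposite strand, whose interaction was 0.06 (SE 0.05, adjusted p = 0.824).

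Csf1r had 101, 97.1, 93.96, 119 and 106 CPM in control females and 94.7, 92.9, 97.6, 115 and 106 CPM in stressed females, so its female groups overlapped almost wholly. Its log2 fold change was -0.01 (SE 0.07, adjusted p = 0.999) with stress in females, -0.10 (SE 0.07, adjusted p = 0.551) for sex in controls, 0.07 (SE 0.07, adjusted p = 0.886) for sex in stressed mice and 0.17 (SE 0.10, adjusted p = 0.574) for the interaction. Of its exon bases 15.1% are shared with Hmgxb3 on the opposite strand. Tgfbr1 had 37.5 ± 4.87, 34.9 ± 1.63, 39.04 ± 3.48 and 38.8 ± 3.48 CPM in control females, stressed females, control males and stressed males, the order used for the means below.

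Tmem119, a transmembrane protein used to tell microglia from other macrophages, had 17.2, 15.6, 17.3, 18.8 and 18.7 CPM in control females, 18.1, 17.5, 19.5, 18.7 and 16.3 CPM in stressed females, 15.5, 18.3, 14.6, 16.1 and 18.3 CPM in control males and 16.4, 19.4, 17.5, 17.9 and 17.2 CPM in stressed males. All 4 groups overlapped. Its log2 fold change was 0.06 (SE 0.08, adjusted p = 0.911) with stress in females, 0.09 (SE 0.07, adjusted p = 0.62) with stress in males, -0.05 (SE 0.08, adjusted p = 0.958) for sex in controls, -0.02 (SE 0.07, adjusted p = 0.998) for sex in stressed mice and 0.03 (SE 0.11, adjusted p = 0.999) for the interaction. Sall1, the transcription factor that keeps the homeostatic state, was higher with stress in both sexes, at 0.11 (SE 0.06, adjusted p = 0.712) in females and 0.13 (SE 0.06, adjusted p = 0.485) in males, neither passing the test. Sall1 had an unadjusted edgeR p of 0.132 in males, larger than its SE would give. It had 41.2, 43.5, 40.6, 44.05 and 40.9 CPM in control females, 43.3, 44.9, 44.8, 45.8 and 46.9 in stressed females, 37.5, 39.4, 34.7, 41.3 and 41.7 in control males and 48.7, 45.8, 43.4, 38.4 and 39.9 in stressed males, with the 2 lowest values in control males. The sexes differed for Sall1 by -0.10 (SE 0.06, adjusted p = 0.505) in controls and -0.08 (SE 0.06, adjusted p = 0.824) in stressed mice, with an interaction of 0.02 (SE 0.09, adjusted p = 0.994). The other homeostatic genes were Siglech, a sialic acid receptor (16.8 ± 2.8, 14.4 ± 0.644, 14.3 ± 1.75 and 15.1 ± 0.721 CPM), Selplg, a selectin ligand (28.7 ± 2.74, 28.4 ± 1.82, 25.2 ± 4.47 and 28.3 ± 3.9), and the integrin chain gene Itgb5 (44.96 ± 6.98, 43.1 ± 1.66, 40.2 ± 3.6 and 41.5 ± 3.33). Fcrls had 23.4 ± 2.06, 21.4 ± 1.14, 21.6 ± 2.03 and 21.8 ± 1.61 CPM, Olfml3 had 20.8 ± 1.77, 17.7 ± 0.596, 16.6 ± 2.75 and 17.3 ± 1.7 CPM, and Hpgds had 10.96 ± 1.45, 9.94 ± 1.1, 9.06 ± 0.425 and 9.05 ± 1.1 CPM. Control females had the highest mean of these 6 genes in each case.

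Among activation genes, the engulfment receptor Trem2 had 7.29, 7.76, 6.2, 6.78 and 8.22 CPM in control females, 6.37, 6.77, 7.21, 7.17 and 7.81 CPM in stressed females, 5.002, 5.11, 6.08, 6.45 and 6.97 CPM in control males and 6.52, 7.22, 6.88, 7.88 and 6.64 CPM in stressed males. Control males were the lowest group by mean, and their replicates 1 to 3 lay below every library of the other groups. The log2 fold change of Trem2 was -0.03 (SE 0.11, adjusted p = 0.982) with stress in females, 0.22 (SE 0.10, adjusted p = 0.304) with stress in males, -0.26 (SE 0.11, adjusted p = 0.241) for sex in controls, -0.01 (SE 0.10, adjusted p = 0.998) for sex in stressed mice and 0.26 (SE 0.15, adjusted p = 0.55) for the interaction. Its adaptor gene Tyrobp had 9.58 ± 0.762, 8.58 ± 1.07, 8.24 ± 1.52 and 8.54 ± 1.61 CPM in the 4 groups, and followed the other microglia genes less closely (r = 0.170). Tyrobp gave -0.17 (SE 0.13, adjusted p = 0.789) with stress in females, 0.08 (SE 0.13, adjusted p = 0.842) in males, -0.21 (SE 0.13, adjusted p = 0.46) for sex in controls, 0.04 (SE 0.12, adjusted p = 0.986) for sex in stressed mice and 0.25 (SE 0.18, adjusted p = 0.651) for the interaction. Fcer1g, the Fc receptor gamma chain, had 8.1 ± 0.76, 7.06 ± 0.771, 6.82 ± 1.28 and 6.98 ± 0.577 CPM, and Fcgr3 had 10.2 ± 1.2 in control females and 9.9 ± 1.06 in control males.

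Of the lysosomal genes, Ctss had 49.9, 54.8, 51.9, 57.4 and 69.8 CPM in control males and 58.3, 58.1, 51.1, 59.1 and 60.6 CPM in stressed males, with 0.0043 (SE 0.09, adjusted p = 0.995) for stress in males, -0.13 (SE 0.09, adjusted p = 0.542) for sex in controls, 0.11 (SE 0.09, adjusted p = 0.843) for sex in stressed mice and 0.23 (SE 0.12, adjusted p = 0.521) for the interaction. Cd68 went against the other activation genes in females: it was the single one of the 17 that was higher with stress, at 0.15 (SE 0.11, adjusted p = 0.777), and it was also higher in stressed males, at 0.16 (SE 0.11, adjusted p = 0.506). Cd68 had 15.6, 13.4, 15.4, 10.5 and 14.7 CPM in control females, 16.9, 11.8, 17.3, 15.4 and 18.8 in stressed females, 12.6, 11.4, 11.6, 13.1 and 13.6 in control males and 13.6, 15.2, 14.8, 12.96 and 14.2 in stressed males, with overlap between all 4 groups. Its remaining values were -0.19 (SE 0.11, adjusted p = 0.441) for sex in controls and 0.01 (SE 0.15, adjusted p = 0.999) for the interaction. Lgmn had 115 ± 7.84, 106 ± 7.63, 108 ± 8.32 and 106 ± 8.57 CPM in the 4 groups. Laptm5, a lysosomal membrane protein of blood-derived cells, had 41.1 ± 1.53, 39.5 ± 4.03, 37.9 ± 3.71 and 42.4 ± 5.46 CPM, and Unc93b1, which carries Toll-like receptors to the endosome, had 14.3 ± 0.577, 12.9 ± 1.42, 13.997 ± 1.26 and 13.8 ± 1.36 CPM.

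Among the adhesion and surface genes, Itgam, the CD11b chain of CR3, had 30.6 ± 2.94, 29.3 ± 4.15, 28.4 ± 2.77 and 31.6 ± 2.8 CPM. In GENCODE M21, 68.7% of its exon bases are shared with the gene Gm49368 on the same strand. Gm49368 was not among the genes of the count table, and how reads in the shared bases were counted is not known. Itgb2, the partner of Itgam, had 5.86 ± 0.368 CPM in control males and 5.86 ± 0.874 in stressed males. The tetraspanin gene Cd53 had 9.33 ± 2.03, 7.66 ± 0.787, 7.76 ± 1.51 and 7.57 ± 1.11 CPM, and Ly86, an accessory protein of Toll-like signalling, had 9.27 ± 1.19, 8.14 ± 0.705, 8.29 ± 1.78 and 8.79 ± 1.57 CPM. Aif1 was the gene least like the rest of the activation list: it had 3.6, 3.8, 3.31, 4.14 and 3.02 CPM in control females, 3.36, 3.05, 3.68, 2.31 and 3.38 in stressed females, 3.43, 3.63, 3.33, 3.95 and 3.88 in control males and 1.73, 2.46, 3.34, 3.99 and 3.88 in stressed males, the 3 lowest values being those of stressed males 1 and 2 and of stressed female 4. Its log2 fold change was -0.17 (SE 0.17, adjusted p = 0.847) with stress in females, -0.16 (SE 0.16, adjusted p = 0.687) with stress in males, 0.07 (SE 0.17, adjusted p = 0.902) for sex in controls, 0.08 (SE 0.16, adjusted p = 0.953) for sex in stressed mice and 0.01 (SE 0.23, adjusted p = 0.999) for the interaction.

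Irf8 had 3.85, 3.4, 3.53, 5.89 and 4.99 CPM in stressed females, where replicates 4 and 5 stood above the other 3, and its mean was 5.21 ± 0.546 in control females, 4.33 ± 1.07 in stressed females, 3.78 ± 0.54 in control males and 4.94 ± 0.553 in stressed males. Its log2 fold change was -0.23 (SE 0.15, adjusted p = 0.745) with stress in females, -0.38 (SE 0.15, adjusted p = 0.222) for sex in controls and 0.21 (SE 0.14, adjusted p = 0.79) for sex in stressed mice. Inpp5d had 15.98 ± 1.78 CPM in stressed females and 15.5 ± 2.1 in stressed males. Ikzf1, the lymphoid and myeloid factor Ikaros, had 5.98 ± 1.38, 6.59 ± 0.933, 6.59 ± 0.946 and 7.06 ± 0.752 CPM, and Ptprc 3.99 ± 0.743, 4.23 ± 0.51, 4.26 ± 0.672 and 4.25 ± 0.304 CPM. The means of Ptprc differed from each other by less than the smallest of their SDs.

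Markers of some other cell types moved with the microglia score. Over 20 libraries its r was 0.657 with the score of 10 oligodendrocyte genes (0.678 after subtraction of group means), 0.671 with that of 9 endothelial and mural genes (0.418), 0.446 with that of 10 striatal neuron genes (0.223) and 0.0182 with the log2 total count. The score's r was 0.451 with oligodendrocyte precursor genes (0.491), 0.383 with neuron genes (0.452) and 0.340 with astrocyte genes (0.284). Lower values were those of GABA neurons at 0.195 (0.289), border macrophages at 0.167 (-0.175), thalamic neurons at 0.127 (-0.00774) and choroid plexus at -0.267 (0.0910). The libraries share depth and dissection, and these values carry no test. With stress in females, 10 of 10 oligodendrocyte genes and 8 of 9 endothelial and mural genes were also lower, with median log2 fold changes of -0.22 and -0.13, and summed oligodendrocyte levels were 9153 to 13205 CPM in control females and 8629 to 10594 CPM in stressed females. For sex in controls, 10 of 10 oligodendrocyte, 8 of 9 endothelial and mural and 10 of 10 striatal genes were lower in males, with medians of -0.14, -0.12 and -0.59. Summed striatal levels were 2326 to 4184 CPM in control females and 2131 to 2677 CPM in control males. With stress in males the striatal genes were higher for 10 of 10, with a median of 0.62, the endothelial and mural genes were higher for 8 of 9, with a median of 0.08, and the oligodendrocyte genes split 5 to 5. The interaction was above 0 for 10 of 10 oligodendrocyte, 9 of 9 endothelial and mural and 10 of 10 striatal genes. Within the oligodendrocyte list the smallest p with stress in females was that of Mag, a myelin protein (-0.27 (SE 0.11, adjusted p = 0.617)). Within the striatal list the smallest p were those of the adenosine receptor gene Adora2a with stress in males (0.73 (SE 0.19, adjusted p = 0.0873)) and of Pde10a, a striatal phosphodiesterase, for sex in controls (-0.76 (SE 0.20, adjusted p = 0.0677)). Within the endothelial and mural list it was that of Cldn5, a tight junction gene of endothelial cells, which gave -0.33 (SE 0.08, adjusted p = 0.396) with stress in females, 0.21 (SE 0.08, adjusted p = 0.206) with stress in males and 0.54 (SE 0.12, adjusted p = 0.136) for the interaction. Among these lists and those of neurons, GABA neurons, astrocytes, oligodendrocyte precursors, thalamic neurons and choroid plexus, the single call in any of the 5 contrasts was Cldn5, lower in control males by -0.44 (SE 0.08, adjusted p = 0.0122).

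The microglia values were computed again with the oligodendrocyte or the striatal score as a covariate. With the oligodendrocyte score in the model the score difference was -0.05 for stress in females, 0.09 for stress in males, -0.14 between the sexes in controls and 0.14 as an interaction, with 25 of 35 genes lower with stress in females, 0 of them at an unadjusted p under 0.05, and P2ry13 called for sex in controls. With the striatal score the differences were -0.10, 0.05, -0.14 and 0.16, and 1 gene was left at an unadjusted p under 0.05 for stress in males. How far the makeup of the dissected tissue enters the differences was not tested beyond these fits.

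**Figure D5:**
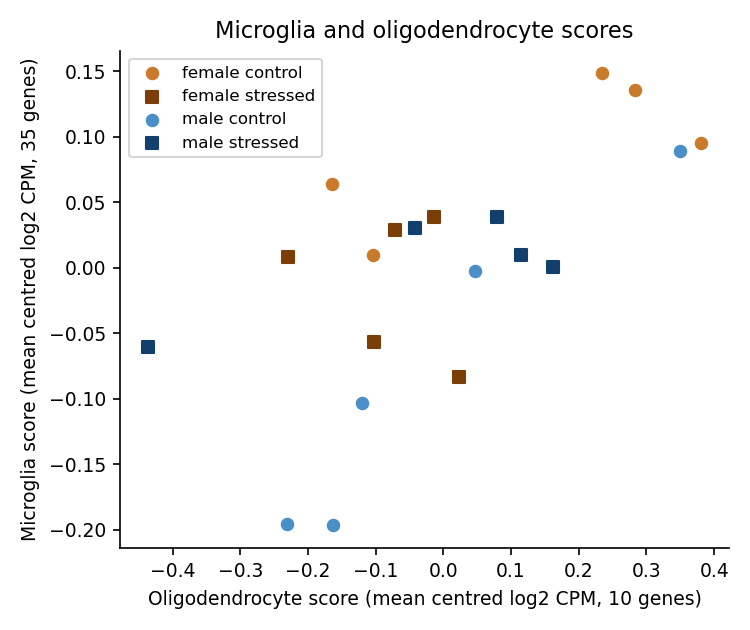
Score of the 35 microglia genes (y axis) against the score of 10 oligodendrocyte genes (x axis), both as mean centred log2 CPM, for 20 libraries marked by group. Libraries with high oligodendrocyte scores, control females 3 to 5 and control male 5, also have the highest microglia scores (r = 0.657).

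Other genes of microglial biology gave the wider picture. Of 26 further microglial genes in the table, 15 were lower with stress in females, 14 higher with stress in males, 19 lower in control males than in control females, and 17 had an interaction above 0, with medians of -0.05, 0.03, -0.09 and 0.04. None was called in any of these contrasts by edgeR, and at an unadjusted p under 0.05 in those directions there were 1, 2, 5 and 3. Mef2c, a transcription factor that neurons also make, had the smallest p with stress in males (0.38 (SE 0.08, adjusted p = 0.0806)), between control males and females (-0.25 (SE 0.08, adjusted p = 0.161)) and as an interaction (0.39 (SE 0.12, adjusted p = 0.306)). In stressed mice the smallest p was that of the sugar transporter gene Slc2a5, -0.31 (SE 0.12, adjusted p = 0.628). Of 17 genes that feed or restrain microglia, such as ligands of Csf1r and the TGF-beta pathway, none was called, with 12 higher in stressed females, 11 higher in stressed males and 10 lower in control males. At an unadjusted p under 0.05, 2 of them were lower with stress in females, 2 higher and 1 lower with stress in males, and 4 lower in control males. Tgfbr2, the type II receptor for TGF-beta, came nearest, with -0.26 (SE 0.07, adjusted p = 0.565) for stress in females, -0.31 (SE 0.07, adjusted p = 0.0533) for sex in controls and 0.37 (SE 0.10, adjusted p = 0.278) for the interaction, and Smad3, which carries the TGF-beta signal to the nucleus, with 0.35 (SE 0.09, adjusted p = 0.0907) for stress in males.

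Genes that mark microglia around disease tissue were not called either. In control females their summed mean was 5195 CPM, against 967 CPM for the 35 microglia genes. Which cells made this RNA cannot be told in bulk tissue, so the values do not describe a state of microglia alone. Of 15 in the table, 12 were lower with stress in females, 8 higher with stress in males and 11 lower in control males, and none was called; in these directions 2, 2 and 3 were at an unadjusted p under 0.05, and 1 was higher with stress in females. The smallest p were those of Lyz2, lysozyme, with stress in females (-0.51 (SE 0.15, adjusted p = 0.565)), of Lpl, lipoprotein lipase, with stress in males (0.66 (SE 0.16, adjusted p = 0.0871)) and for the interaction (0.71 (SE 0.23, adjusted p = 0.335)), and, in the protease gene Ctsz, for sex in controls (-0.31 (SE 0.08, adjusted p = 0.074)). Of 20 inflammatory genes 6 were in the table and none was called. Nfkbia, the inhibitor of NF-kappaB, came nearest, at 0.57 (SE 0.14, adjusted p = 0.0529) for sex in controls, -0.43 (SE 0.13, adjusted p = 0.12) for stress in males and -0.56 (SE 0.19, adjusted p = 0.348) for the interaction. Of 11 antigen presentation and interferon genes, 8 were lower with stress in females and 10 lower in control males, led by B2m, the light chain of class I molecules, at -0.24 (SE 0.07, adjusted p = 0.565) and -0.24 (SE 0.07, adjusted p = 0.123), and none was called, with 4 and 3 in these directions at an unadjusted p under 0.05. Between stressed males and females the smallest p of these lists were those of the tetraspanin gene Cd9 (0.18 (SE 0.09, adjusted p = 0.715)), of C3, the complement protein that C1q activates (0.21 (SE 0.16, adjusted p = 0.824)), of Rela, a subunit of NF-kappaB (-0.11 (SE 0.06, adjusted p = 0.748)), and of Stat2, which carries interferon signals (-0.14 (SE 0.06, adjusted p = 0.678)). Mki67, a proliferation gene, gave 0.43 (SE 0.26, adjusted p = 0.737) with stress in females and 0.47 (SE 0.25, adjusted p = 0.389) in males. Cd163, a border macrophage gene, gave 0.85 (SE 0.35, adjusted p = 0.242) with stress in males and -0.95 (SE 0.37, adjusted p = 0.221) for sex in controls. The 3 border macrophage genes did not move together. With stress in males 1 was higher and 2 were lower, with a median of -0.06. For sex in controls 1 was higher and 2 were lower, with a median of -0.11.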

How the data were processed

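RNA was sequenced from 20 libraries, each a pool of 3 mice, 5 per group. The library kit was the Illumina TruSeq Stranded mRNA kit, per the labels' protocols. Reads were aligned to mm10 and counted, and the submitters' processing notes name STAR and featureCounts; their versions, the annotation and the strand setting are not given in the sources used here. The deposited table holds whole-number counts per gene, not normalized, for 12988 genes, each with a row total of at least 1002, so less abundant genes were not analysed here. Columns were matched to samples by their names, and 0 columns were left over.

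Counts were fitted in edgeR 4.0.16 (R 4.3.3) with TMM normalization, a mean for each of 4 groups over all 20 libraries, and the quasi-likelihood test; filterByExpr kept all 12988 genes and the common biological coefficient of variation was 8.83%. Two-sided p-values were adjusted by Benjamini-Hochberg over all genes of a contrast, with a gene called at an adjusted p under 0.05. Adjusted p comes from this test unless another tool is named. SE is the size of the edgeR log2 fold change divided by the square root of the test's F statistic. For some genes the p of the test is larger than this SE would give. Sex contrasts are male minus female. Scores used log2 CPM with a prior count of 2. Scripts were tested on simulated data in which some genes changed by known folds.

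Members and gene lists were chosen with earlier results of these data known, so no list was tested as a set. Named genes followed a rule: every microglia gene with its level or means, 14 core genes and the 3 smallest p of each contrast with fold changes, and, from the other lists, calls and genes of smallest p in the contrasts described; Med12l and Cask were added because they overlap microglia genes. No label says what a replicate number shares between groups, and libraries were fitted without pairing. Same-numbered libraries deviated with a median r of -0.0116 (5 of 30 pairs above 0.1). The r ran from -0.00208 to 0.237 between control females and control males. Between control females and stressed males it ran from -0.413 to -0.00367. Libraries with different numbers were not compared. Depth limits precision most in female control 4, with 2.71 M (mega) counts, and p-values measure the spread between pools. Alternatives were DESeq2 1.42.0, its size factors, limma-voom (limma 3.58.1), the robust option, no filter, a mean of at least 5 CPM, a fit of the compared groups alone, a block on replicate number, a prior count of 0.5, the median over genes, the score without genes of other brain cells, each library left out, and, chosen after seeing the data, an oligodendrocyte or striatal marker score as a covariate. The values of 1 gene of the further microglial list are not reported here.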

Additional observations from a re-analysis of the deposited data

Results flagged for a closer look

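Within a group of 5 libraries, a value was singled out when its gap to the nearest other library exceeded 0.71 of the group's range. Of 148 groups of values looked at, 9 held such a library, and chance alone gives about 1 in 20. Control female 5 had 23.93 CPM of Olfml3 where the others had 19.8 to 20.33, and stressed male 3 had 14.35 CPM where the others had 17.7 to 18.84. Ctss read 46.58 CPM in stressed female 5, with the others at 54.3 to 56.19, and 51.11 CPM in stressed male 3, with the others at 58.1 to 60.63. For Itgb5, control female 4 stood at 57.22 CPM above 40.91 to 44.13, and stressed female 2 at 40.19 CPM below 43.48 to 44.34. Hpgds was at 13.55 CPM in control female 4, against 10.15 to 10.47 in the others. Csf1r was at 107.7 CPM in control male 5, against 89.12 to 93.97, and Unc93b1 at 16.24 CPM in stressed male 1, against 12.91 to 13.52. Stressed male 3 and control female 4 each appear in 2 of these values, and control female 4 is the library with the fewest counts.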

How the results depend on the processing

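The number of microglia genes called stayed at 0 in every contrast and setting run, with 3 exceptions, all for sex in controls: 1 with DESeq2, 1 with the oligodendrocyte score as a covariate and, with libraries left out in turn, 0 to 3, the 3 being without male control 5. The lowest adjusted p of a microglia gene over those settings ran from 0.0292 to 0.192. With the replicate block the number was 0 in each of the 5 contrasts. Shares of all genes under these other settings are not given here. The score differences moved by less than 1 SD under all 90 alternatives, where SD is that of libraries within groups, pooled over groups. Group SDs ran from 0.0390 to 0.124, near the size of the differences themselves, so this bound is wide and does not show stability. With libraries left out the score differences ran from -0.123 to -0.0857 for stress in females, 0.0569 to 0.128 for stress in males, -0.215 to -0.144 for sex in controls, -0.00118 to 0.0325 for sex in stressed mice and 0.16 to 0.232 for the interaction. Of 77 fold changes of named microglia genes, none of them called, 8 turned sign under another setting. With the striatal score as a covariate these were C1qa (-0.0134) and Cd68 (-0.0253) for stress in males, and Cd68 (-0.144), Sall1 (-0.0285) and Tmem119 (-0.0112) for the interaction. With limma-voom they were Csf1r for stress in females (0.00173), Ctss for stress in males (-0.0038) and Sall1 for the interaction (-0.019). With DESeq2 Aif1 turned for the interaction (-0.00135), and with the oligodendrocyte score Csf1r for stress in females (0.0452). The cause was not tested. Leaving out 1 library turned 15. For stress in females the ranges were Csf1r -0.0633 to 0.0292 and Trem2 -0.095 to 0.00602. For stress in males they were C1qa -0.0204 to 0.126, C1qb -0.105 to 0.0442, Ctss -0.0413 to 0.0988 and Tyrobp -0.021 to 0.147. For sex in stressed mice they were Aif1 -0.0198 to 0.166, Cx3cr1 -0.0203 to 0.0654, Tmem119 -0.059 to 0.00432, Trem2 -0.0602 to 0.036 and Tyrobp -0.0662 to 0.102. For the interaction they were Aif1 -0.091 to 0.095, Cd68 -0.0952 to 0.0907, Sall1 -0.0214 to 0.0596 and Tmem119 -0.00564 to 0.079. Differences between groups were mostly under 0.3 on the log2 scale, with standard errors of about 0.1, which 5 pools per group resolve poorly.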
